A study of Homo sapiens with 12 samples.

Results

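The 9 genes described here encode class I antigen presentation molecules and the machinery that loads them with peptide. They were chosen by gene symbol from the 57189 rows of a table of length-scaled transcript levels (TPM), and all 9 were found. They are HLA-B, HLA-C, HLA-E and HLA-F for heavy chains, B2M for the light chain, TAP1 and TAP2 for the peptide transporter and TAPBP for tapasin. The last is NLRC5, for a coactivator of class I promoters. The 12 RNA libraries, all of human cell lines, form 4 groups of 3. LB cells, for which the labels give A549 as the source, were treated with amiodarone and hydroxypropyl-beta-cyclodextrin (LB AMD+HPbCD), with amiodarone (LB AMD) or with vehicle (LB DMSO), and A549 cells, a human lung adenocarcinoma line, were treated with vehicle (A549 DMSO). Amiodarone, an antiarrhythmic drug that accumulates in lysosomes, was used at 10 µM for 24 h. HPbCD, a ring of sugars that binds cholesterol, was in the medium at 10 mg/ml for the 24 h between seeding and drug. DMSO at 0.1% served as vehicle. The sources used here do not say how the LB cells were made or whether they are 1 clone. Neither HPbCD alone nor amiodarone on A549 cells was analysed here, so HPbCD was measured only together with the drug.

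MHC class I molecules display peptides from inside the cell to cytotoxic T cells and natural killer cells. A heavy chain pairs with beta-2-microglobulin in the endoplasmic reticulum, where the TAP transporter delivers peptides cut by the proteasome and tapasin holds the empty molecule until a fitting peptide binds. Epithelial cells, like most nucleated cells, carry class I at a level that interferon raises, through STAT and IRF factors and through NLRC5 acting on a conserved promoter module.

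The values are TPM, which are scaled per transcript length and per library, so that levels of different genes may be set side by side. Read depth cannot be recovered from TPM and is unknown here. The sums per library lay between 999449 and 999632, and between 20966 and 22261 genes were above 0. The tests covered 13968 genes whose mean over all libraries reached 1 TPM, including all 9. Across these genes, Pearson correlations between libraries of one group were 0.985 to 0.989, and between libraries of different groups 0.943 to 0.986. The epithelial keratins KRT8 and KRT18 were present in all libraries, and the 7 epithelial markers summed to 2563 to 2959 TPM in LB AMD+HPbCD, 2750 to 3131 in LB AMD, 2897 to 3227 in LB DMSO and 7258 to 7795 in A549 DMSO. KRT8 and KRT18 made up most of each sum. Over the 12 libraries KRT19 lay at 45.1 to 287 TPM, CDH1 at 7.29 to 33.15, EPCAM at 1.13 to 12.1, CLDN4 at 1.42 to 3.23 and CLDN7 at 0 to 1.9. The markers did not move together in every comparison. In LB DMSO against A549 DMSO, 5 of the 6 tested epithelial markers fell and none rose, where 18.2% of all tested genes were called as lower. In LB AMD+HPbCD against LB DMSO KRT19 rose, KRT18 and CDH1 fell, and the other tested ones did not pass. Of 10 leukocyte markers, 3 were at 0 in every library, PTPRC reached at most 0.01 TPM and only CD14 passed 1 TPM, with sums of 1.27 to 1.37, 1.46 to 3.09, 2.66 to 3.36 and 3.48 to 6.06 TPM in the same order. The 9 fibroblast and endothelial markers summed to 7.21 to 7.67 TPM in LB AMD+HPbCD, 10.8 to 15.9 in LB AMD, 10.8 to 11.6 in LB DMSO and 4.19 to 6.32 in A549 DMSO. Of these 9, 7 never passed 1 TPM, while COL1A1 lay at 2.6 to 9.25 TPM and LUM at 0.1 to 6.21 TPM over the 12 libraries. In bulk RNA, more cells carrying a transcript and more transcript per cell cannot be told apart.

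Of the 9 genes, 7 lie in the MHC region of chromosome 6, B2M lies on chromosome 15 (44711487 to 44718877, plus strand) and NLRC5 on chromosome 16 (56989485 to 57083531, plus strand), by GENCODE 29 on GRCh38. HLA-B (31269491 to 31357188) and HLA-C (31268749 to 31272130), both on the minus strand of chromosome 6, overlap in that annotation. TAP1 (32845209 to 32853978, minus strand) overlaps PSMB9 and PSMB8-AS1 on the opposite strand, and TAP2 (32821833 to 32838780, minus strand) a further protein-coding model on its own strand. HLA-F (29722775 to 29738528, plus strand) overlaps HLA-F-AS1 and NLRC5 an antisense gene. HLA-E (30489467 to 30494205, plus strand) overlaps no other gene, and TAPBP lies at 33299694 to 33314387 on the minus strand. HLA genes are also near-identical to each other and vary between people, so how reads were divided between HLA-B, HLA-C, HLA-E and HLA-F is uncertain. The library kit marks strand, but the sources used here do not give the strand setting of the counting.

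Promoter sequences of 7 of the 9 genes, HLA-E and NLRC5 not among them, were matched in RefSeq (GRCh38.p14). The 4 shown are those of the heavy chain, light chain, transporter and tapasin genes that the results turn on, each as the 250 bases before the annotated start. Capitals mark matches, on either strand, to GAAANNGAA and GAANNGAAA, spaced GAA repeats of the kind that IRF factors are known to bind, and to TGACG and CCAAT, which are parts of the class I promoter module. Matches may overlap each other, and the motifs were chosen after the sequences were seen.
HLA-B, chr6:31357180-31357429, minus strand: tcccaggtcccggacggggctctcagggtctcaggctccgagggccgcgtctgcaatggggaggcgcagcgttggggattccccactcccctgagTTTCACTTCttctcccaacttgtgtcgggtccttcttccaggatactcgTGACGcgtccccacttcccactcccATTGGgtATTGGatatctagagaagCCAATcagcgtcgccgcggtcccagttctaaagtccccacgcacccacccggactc
B2M, chr15:44711267-44711516, plus strand: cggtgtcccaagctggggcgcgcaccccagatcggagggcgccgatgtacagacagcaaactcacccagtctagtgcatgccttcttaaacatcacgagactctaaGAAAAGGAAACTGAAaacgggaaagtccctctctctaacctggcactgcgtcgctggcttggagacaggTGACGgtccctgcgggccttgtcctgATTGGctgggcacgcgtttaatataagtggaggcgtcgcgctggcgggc
TAP1, first of 2 start sites, chr6:32853705-32853954, minus strand: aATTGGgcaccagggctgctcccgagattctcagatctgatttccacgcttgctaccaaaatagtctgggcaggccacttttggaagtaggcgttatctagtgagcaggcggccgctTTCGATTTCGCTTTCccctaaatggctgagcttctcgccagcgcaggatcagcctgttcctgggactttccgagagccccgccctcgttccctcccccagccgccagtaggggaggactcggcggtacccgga
TAPBP, chr6:33314079-33314328, minus strand: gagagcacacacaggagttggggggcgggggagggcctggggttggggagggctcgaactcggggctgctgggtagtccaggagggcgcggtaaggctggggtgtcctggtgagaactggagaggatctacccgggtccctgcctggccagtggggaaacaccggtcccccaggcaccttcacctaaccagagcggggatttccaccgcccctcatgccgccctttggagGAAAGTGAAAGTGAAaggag
GAAANNGAA was found upstream of 5 of the 7 genes, HLA-F, B2M, TAP1, TAP2 and TAPBP, and in 6.88% of 35116 RefSeq promoters of the same length. In B2M, TAP1 and TAPBP it occurs as 2 overlapping matches, whose first base is at position -144 in B2M, -133 in TAP1 and -20 in TAPBP, counted back from -1 just before the start. GAANNGAAA was found in HLA-B (-155), HLA-C and TAP2 and in 6.56% of all promoters. CCAAT was found in 5 genes (32.0% of all promoters) and TGACG in 4 (21.2%), and in HLA-B, HLA-C and B2M both occur between the GAA repeat and the start. TTCNNNGAA, the pattern of STAT dimers, was found in 1 gene, TAP1 at its second start site, and in 6.57% of all promoters. Each is a match of letters, and no binding was measured.

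**Figure D1:**
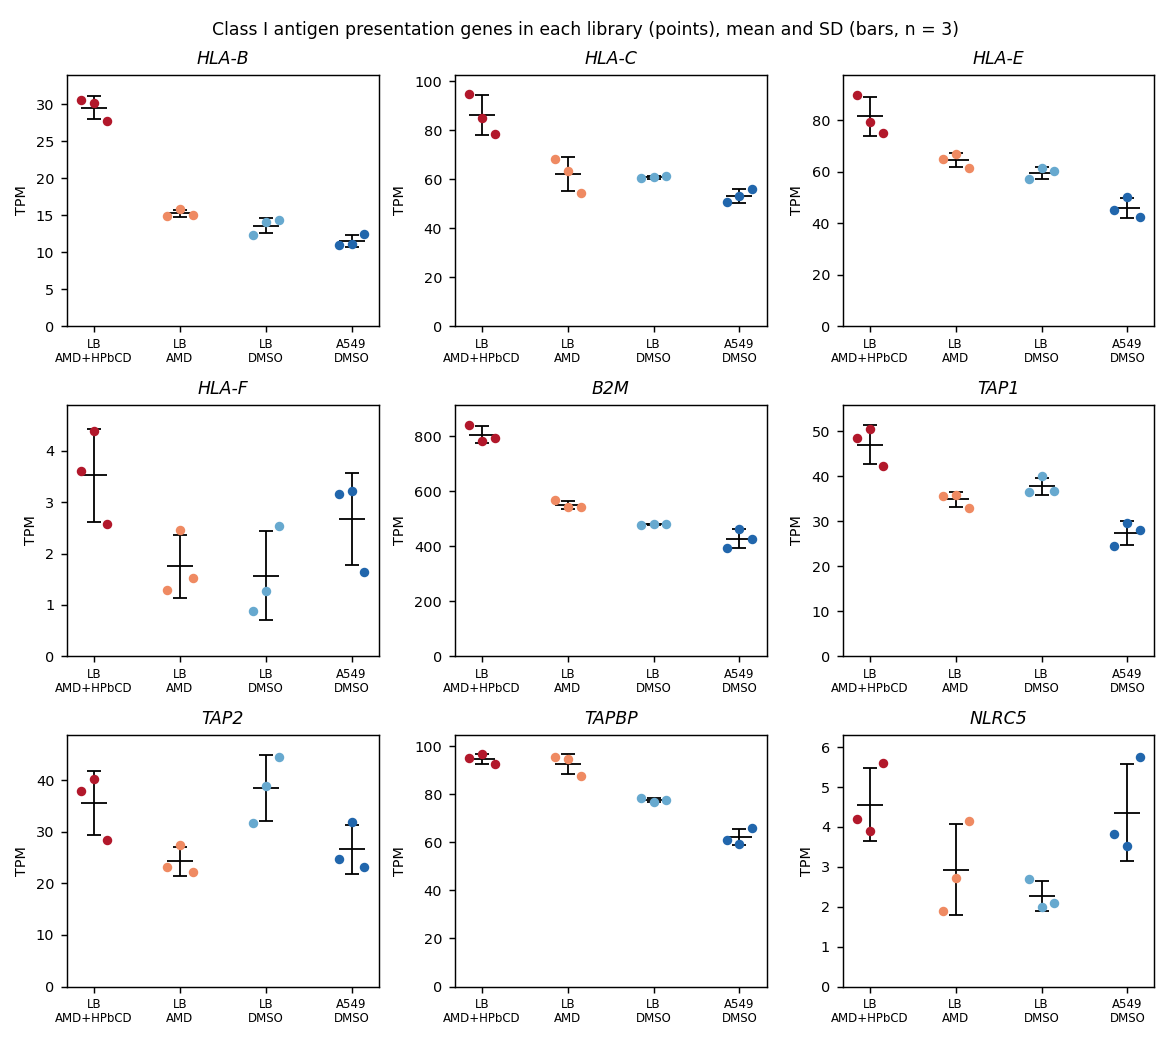
TPM (linear axis from 0) of each of the 9 genes by group, with points for the 12 libraries and bars for the mean and SD of 3 libraries. HLA-B and B2M in LB AMD+HPbCD lie above every other library, while TAPBP overlaps between the amiodarone groups and TAP2 in LB AMD lies below LB DMSO.

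The effect of adding HPbCD to amiodarone was read from LB AMD+HPbCD against LB AMD. Of the genes past the test, the heavy chains HLA-B, HLA-C and HLA-E and the light chain were higher with HPbCD, with HLA-B at 1.93-fold and B2M at 1.46-fold of the mean TPM in LB AMD, and TAP1 was 1.35-fold higher. Tapasin did not differ past the test. Of the 9 genes, 5 rose and none fell at an adjusted p under 0.05, where 4.07% of all tested genes were called, 2.71% as higher and 1.36% as lower. Adjusted p are from limma on log2(TPM + 1), adjusted by Benjamini-Hochberg over all 13968 genes, and differences on that scale understate changes of low genes. The labels do not say whether the 3 libraries of a group came from separate cultures, so p-values measure the spread between these libraries only, which may be technical. The median difference of the 9 genes was 0.52 on the log2 scale, against -0.0081 over all tested genes. In 7 of them all 3 LB AMD+HPbCD libraries lay above all 3 LB AMD libraries, which held for 12.9% of tested genes, and in none did they lie below (12.2%).

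Among the classical heavy chains, which present peptides to T cells, HLA-B had 30.6, 30.2 and 27.7 TPM in LB AMD+HPbCD, against 14.9, 15.8 and 15.1 TPM in LB AMD. The groups were far apart, and HLA-B had a log2 difference of 0.91 ± 0.077 (SE, adjusted p = 3.61e-05), larger than that of 99.2% of tested genes. HLA-C had 94.8, 85.2 and 78.7 TPM in LB AMD+HPbCD, against 68.5, 63.5 and 54.5 TPM in LB AMD. The lowest HLA-C library with HPbCD still lay above the highest without it, and the difference was 0.47 ± 0.084 (SE, adjusted p = 0.00882). Both calls stood under each of the 23 alternatives.

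HLA-E, which presents leader peptides of other class I chains to natural killer cells, had 89.9, 79.5 and 75.3 TPM in LB AMD+HPbCD, against 64.8, 66.96 and 61.7 TPM in LB AMD. Its groups did not overlap and it rose by 0.33 ± 0.076 (SE, adjusted p = 0.0294). The HLA-E call was lost without LB AMD replicate 1, 2 or 3 or LB AMD+HPbCD replicate 1 or 2 (adjusted p 0.0631 to 0.124), and also in the fit of only the 2 groups compared and with 3 other settings. HLA-F, a nonclassical chain of low level, had 3.61, 4.39 and 2.58 TPM in LB AMD+HPbCD, against 1.29, 2.45 and 1.52 TPM in LB AMD. The HLA-F groups did not overlap, but the lowest library with HPbCD was close to the highest without it, and the difference of 0.72 (95% interval 0.14 to 1.3) was not past the test (adjusted p = 0.175).

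B2M, the light chain shared by all class I molecules, was the most abundant of the 9 in every group. It had 841, 784 and 793 TPM in LB AMD+HPbCD, against 568, 543 and 543 TPM in LB AMD. The 2 groups were well apart, and the difference was 0.55 ± 0.055 (SE, adjusted p = 0.000136), called under each of the 23 alternatives.

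TAP1, one of the 2 subunits that pump peptides into the endoplasmic reticulum, had 48.6, 50.4 and 42.2 TPM in LB AMD+HPbCD, against 35.6, 35.9 and 33.0 TPM in LB AMD. TAP1 did not overlap between the groups and rose by 0.42 ± 0.084 (SE, adjusted p = 0.0158), a call lost without LB AMD replicate 3 or LB AMD+HPbCD replicate 1 or 2 (adjusted p 0.0675 to 0.0712). TAP2, the other subunit, had 37.9, 40.3 and 28.4 TPM in LB AMD+HPbCD, against 23.1, 27.5 and 22.3 TPM in LB AMD. One LB AMD+HPbCD library of TAP2 was close to the highest LB AMD library, and the difference of 0.52 (95% interval 0.18 to 0.87) was not past the test (adjusted p = 0.097).

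Tapasin bridges TAP to the empty class I molecule and edits its peptide. TAPBP had 95.1, 96.7 and 92.6 TPM in LB AMD+HPbCD, against 95.4, 94.7 and 87.7 TPM in LB AMD. The TAPBP groups overlapped, with a difference of 0.034 and a 95% interval of -0.077 to 0.15 (adjusted p = 0.792). NLRC5, the coactivator of class I promoters, had 4.19, 3.89 and 5.59 TPM in LB AMD+HPbCD, against 1.90, 2.73 and 4.15 TPM in LB AMD. NLRC5 overlapped through 1 high LB AMD library, and its difference of 0.53 (95% interval 0.058 to 0.999) was not past the test (adjusted p = 0.219).

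**Figure D2:**
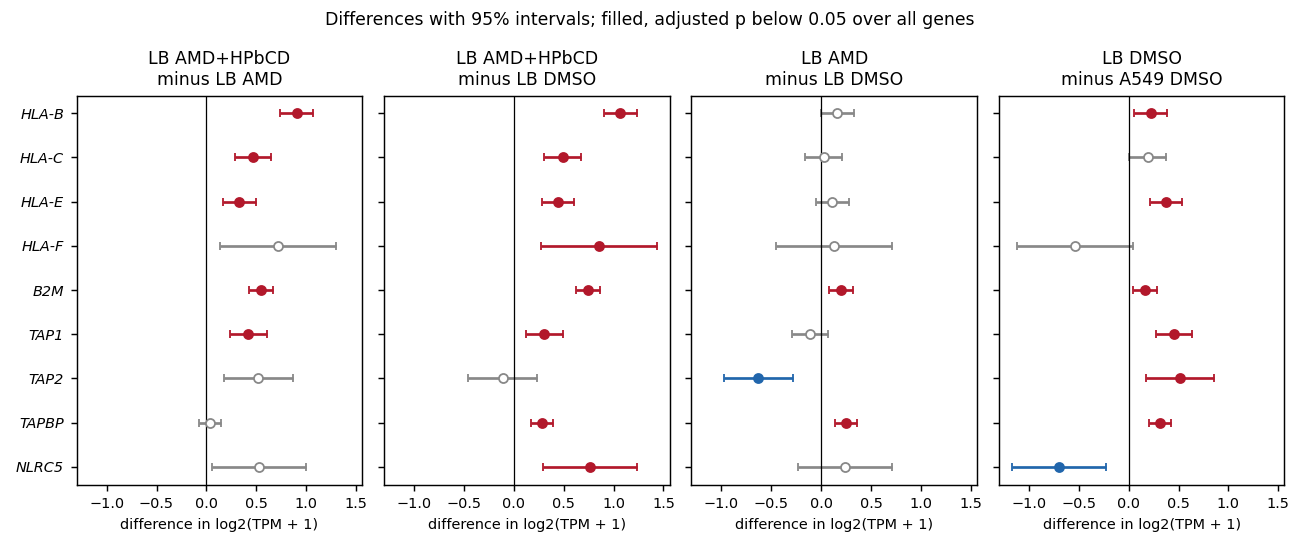
Differences in log2(TPM + 1) of the 9 genes in the 4 comparisons, with 95% intervals from limma, filled where the adjusted p over all genes is under 0.05. Adding HPbCD to amiodarone gave 5 filled points, all to the right of 0, and HLA-B at 0.91 is the farthest, while in LB AMD against LB DMSO TAP2 at -0.63 is filled to the left.

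The combined treatment was also set against LB DMSO, to see where the cells stood relative to vehicle. This comparison shares its LB AMD+HPbCD libraries with the one above, so the values are given side by side and are not separate evidence. Of the 9 genes 8 rose and none fell, where 17.9% of tested genes were called, 10.1% as higher and 7.81% as lower. In the same 8 all LB AMD+HPbCD libraries lay above all LB DMSO libraries, which held for 19% of tested genes, and in none did they lie below (20.1%). The median difference was 0.49, against -0.018 over all tested genes.

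In LB DMSO, HLA-B had 12.4, 14.1 and 14.3 TPM and HLA-C had 60.3, 60.8 and 61.5 TPM. All LB AMD+HPbCD libraries were above these, with differences of 1.07 ± 0.077 for HLA-B (SE, adjusted p = 1.66e-06) and 0.49 ± 0.084 for HLA-C (SE, adjusted p = 0.00171). HLA-E had 57.1, 61.5 and 60.2 TPM in LB DMSO and differed by 0.44 ± 0.076 (SE, adjusted p = 0.00163). HLA-F had 0.89, 1.27 and 2.54 TPM in LB DMSO, the highest of them just under the lowest LB AMD+HPbCD library. The HLA-F difference of 0.85 ± 0.27 (SE, adjusted p = 0.0452) lost its call without any of 7 libraries in turn (A549 DMSO replicate 1, LB DMSO replicates 1 and 2, LB AMD replicates 1 and 3, LB AMD+HPbCD replicates 1 and 2; adjusted p 0.0515 to 0.163), and with 4 settings up to 0.124.

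B2M had 478, 483 and 479.9 TPM in LB DMSO, close to each other for their level. With 806 ± 30.9 TPM in LB AMD+HPbCD against 480.2 ± 2.32 TPM in LB DMSO (SD, n = 3 each), it rose by 0.75 ± 0.055 (SE, adjusted p = 1.91e-06). TAPBP had 78.6, 76.7 and 77.6 TPM in LB DMSO and was higher with the combined treatment by 0.28 ± 0.051 (SE, adjusted p = 0.00227). These calls, and those of HLA-B, HLA-C and HLA-E, stood in each of the 23 alternatives.

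Of the transporter genes, TAP1 passed the test here and TAP2 did not. TAP1 had 36.6, 39.98 and 36.7 TPM in LB DMSO, all below LB AMD+HPbCD, and rose by 0.31 ± 0.084 (SE, adjusted p = 0.025). Without LB DMSO replicate 1 or 3 or LB AMD+HPbCD replicate 1 or 2 the TAP1 call was lost (adjusted p 0.0796 to 0.093), as it was with no filter (0.055). TAP2 had 31.8, 38.9 and 44.6 TPM in LB DMSO, a range that overlaps LB AMD+HPbCD, and its difference was -0.11 (95% interval -0.46 to 0.23, adjusted p = 0.679). NLRC5 had 2.69, 2 and 2.09 TPM in LB DMSO, below all LB AMD+HPbCD libraries, and rose by 0.76 ± 0.22 (SE, adjusted p = 0.0289). The NLRC5 call was lost without LB DMSO replicate 2 or 3 or LB AMD+HPbCD replicate 1 or 3 (adjusted p 0.0611 to 0.11) and with no filter (0.0864).

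Amiodarone on its own, in LB AMD against LB DMSO, was accompanied by mixed differences in class I genes. Tapasin and B2M rose, TAP2 fell, and the heavy chains were not past the test. That is 3 of 9 genes called, where 8.62% of tested genes were, 4.9% as higher and 3.72% as lower. Groups did not overlap in 4 genes with LB AMD higher (15.2% of tested genes) and in 2 with LB AMD lower (14.8%). The median difference was 0.13, against -0.0027 over all tested genes. TAPBP averaged 92.6 ± 4.24 TPM in LB AMD and 77.6 ± 0.955 TPM in LB DMSO (SD, n = 3 each), without overlap, a difference of 0.25 ± 0.051 (SE, adjusted p = 0.0107) that was called under each of the 23 alternatives. B2M averaged 551 ± 14.6 TPM in LB AMD and 480.2 ± 2.32 TPM in LB DMSO, also without overlap, and rose by 0.20 ± 0.055 (SE, adjusted p = 0.0432). The B2M call was lost when any of 9 libraries was left out, namely A549 DMSO replicate 3, every LB DMSO and LB AMD library, and LB AMD+HPbCD replicates 2 and 3 (adjusted p 0.0508 to 0.125), and with 4 settings (0.0627 to 0.105).

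TAP2 averaged 24.3 ± 2.83 TPM in LB AMD and 38.4 ± 6.41 TPM in LB DMSO (SD, n = 3 each). All 3 LB AMD libraries were below LB DMSO, and TAP2 fell by 0.63 on the log2 scale (SE 0.16, adjusted p = 0.0297), which is at percentile 0.8 of the differences of all tested genes. Its call was lost without LB DMSO replicate 2 or 3 or LB AMD replicate 1 or 3 (adjusted p 0.0849 to 0.115), with no filter and in limma without trend (0.0522 and 0.0872). TAP1, with a difference of -0.11 (95% interval -0.30 to 0.070, adjusted p = 0.474), was not past the test although its groups did not overlap. HLA-B at 0.16 (-0.0063 to 0.33, adjusted p = 0.235) and HLA-E at 0.11 (-0.053 to 0.28, adjusted p = 0.422) were each higher in all 3 LB AMD libraries without passing. HLA-C at 0.023 (-0.16 to 0.21, adjusted p = 0.91), HLA-F at 0.13 (-0.45 to 0.71, adjusted p = 0.829) and NLRC5 at 0.23 (-0.24 to 0.70, adjusted p = 0.577) overlapped between the groups.

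The lines themselves were compared as LB DMSO against A549 DMSO. LB cells carried more TAP1, TAP2, tapasin and HLA-E transcript, slightly more HLA-B and B2M, and less NLRC5. Of the 9 genes, 6 rose and 1 fell, where 32.4% of all tested genes were called, 14.2% as higher and 18.2% as lower. In 5 genes all LB DMSO libraries lay above A549 DMSO (18.6% of tested genes) and in 1 all lay below (25.1%). The median difference was 0.22, against -0.035 over all tested genes. In the chromosome 6 span from HLA-F to TAPBP, 5 of the 7 genes described here rose, with a median of 0.32. Of the 98 other tested genes there, 38 rose and 5 fell, with a median of 0.24.

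HLA-E had 45.2, 50.1 and 42.3 TPM in A549 DMSO, TAP1 had 24.4, 29.7 and 28.1 TPM, and TAPBP had 61.1, 59.5 and 65.9 TPM. Every LB DMSO library was above these, by 0.37 ± 0.076 for HLA-E (SE, adjusted p = 0.0023), 0.45 ± 0.084 for TAP1 (SE, adjusted p = 0.0013) and 0.32 ± 0.051 for TAPBP (SE, adjusted p = 0.000454). The 3 calls stood in each of the 23 alternatives. TAP2 had 24.7, 32.0 and 23.1 TPM in A549 DMSO, overlapping LB DMSO by 1 library, and rose by 0.52 ± 0.16 (SE, adjusted p = 0.0255). Its call was lost without A549 DMSO replicate 1 or 3 or LB DMSO replicate 2 or 3 (adjusted p 0.0738 to 0.104) and with no filter (0.069).

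HLA-B had 10.9, 11.1 and 12.4 TPM in A549 DMSO, the highest of which overlapped LB DMSO, and rose by 0.22 ± 0.077 (SE, adjusted p = 0.0443). B2M had 393, 465 and 428 TPM in A549 DMSO, all below LB DMSO, and rose by 0.17 ± 0.055 (SE, adjusted p = 0.0345). The HLA-B call was lost when any library but A549 DMSO replicate 3, LB DMSO replicate 1 or LB AMD+HPbCD replicate 3 was left out (adjusted p 0.0526 to 0.14), and the B2M call without A549 DMSO replicate 1 or 3 or any LB DMSO library (0.067 to 0.127). With 4 settings each call was lost too, at adjusted p up to 0.125 for HLA-B and 0.0934 for B2M. HLA-C had 50.6, 53.1 and 56.1 TPM in A549 DMSO, below all LB DMSO libraries, with a difference of 0.19 (95% interval 0.0067 to 0.37) not past the test (adjusted p = 0.106). HLA-C was past it only in the fit of only the 2 groups compared (adjusted p = 0.0421).

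NLRC5 ran the other way, with 3.81, 3.52 and 5.75 TPM in A549 DMSO and all LB DMSO libraries below them. NLRC5 fell by 0.70 on the log2 scale (SE 0.22, adjusted p = 0.0259), a call lost without A549 DMSO replicate 3 or LB DMSO replicate 2 or 3 (adjusted p 0.0726 to 0.102) and with no filter (0.0723). HLA-F had 3.16, 3.21 and 1.64 TPM in A549 DMSO, overlapping LB DMSO, and its difference was -0.54 (95% interval -1.12 to 0.045, adjusted p = 0.15). It was past the test only without LB DMSO replicate 3 (0.0417).

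Within each group B2M was the most abundant gene and TAPBP the next, and HLA-B, NLRC5 and HLA-F were the 3 lowest in that order. HLA-C and HLA-E lay between TAPBP and the transporter genes, with 86.2 ± 8.11 and 81.5 ± 7.52 TPM in LB AMD+HPbCD, 62.1 ± 7.10 and 64.5 ± 2.67 TPM in LB AMD, 60.9 ± 0.580 and 59.6 ± 2.25 TPM in LB DMSO and 53.3 ± 2.78 and 45.9 ± 3.96 TPM in A549 DMSO (mean ± SD, n = 3). In the 3 LB groups HLA-C and HLA-E differed by less than the larger of their SDs. The 4 heavy chains together summed to 201 ± 17.4 TPM in LB AMD+HPbCD, 144 ± 9.47 TPM in LB AMD, 136 ± 4.25 TPM in LB DMSO and 113 ± 3.87 TPM in A549 DMSO. The sum covers these 4 genes only.

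Pairs of genes whose products work together were compared as ratios within a library, tested by an exact two-sided permutation test that cannot go below p = 0.1 with 3 libraries against 3. The ratio of B2M to the summed heavy chains was 4.03 ± 0.245 in LB AMD+HPbCD, 3.85 ± 0.221 in LB AMD, 3.54 ± 0.101 in LB DMSO and 3.78 ± 0.194 in A549 DMSO (SD, n = 3 each). Most groups overlapped, and LB AMD+HPbCD against LB DMSO, at a log2 difference of 0.18, was the only one of the 4 comparisons at the lowest possible value (exact p = 0.1). The ratio of TAP1 to TAP2 was 1.34 ± 0.126 in LB AMD+HPbCD, 1.44 ± 0.124 in LB AMD, 1.001 ± 0.165 in LB DMSO and 1.04 ± 0.151 in A549 DMSO (SD, n = 3 each). Both amiodarone groups lay above LB DMSO without overlap, by 0.54 without HPbCD and 0.43 with it on the log2 scale (exact p = 0.1 for each, before any adjustment over the 8 ratio tests). LB AMD+HPbCD against LB AMD differed by -0.11 (exact p = 0.3) and LB DMSO against A549 DMSO by -0.064 (exact p = 0.8).

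**Figure D3:**
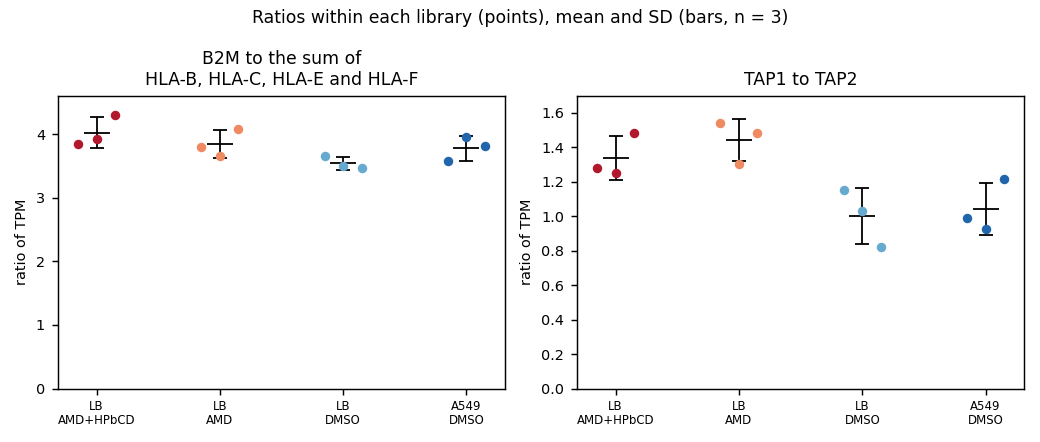
Ratio of TPM within each library (linear axis from 0), with points for libraries and bars for the mean and SD of 3 libraries per group. The TAP1 to TAP2 ratio lies above 1.2 in all 6 amiodarone libraries and at or below 1.15 in LB DMSO, but A549 DMSO replicate 3, without amiodarone, is at 1.22. B2M to the heavy chain sum stays between 3.47 and 4.31 in all 12.

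Class I genes depend on partners that supply peptides, fold the chains and drive their promoters, and lists of these were read in the same fits. The lists are from textbook knowledge but were chosen with earlier results of these data known, so they are not separate evidence. In LB AMD+HPbCD against LB AMD, 4.07% of all tested genes were called, 2.71% as higher and 1.36% as lower. In the interferon axis (receptors, kinases, factors and inhibitors), 3 of the 16 tested genes rose and none fell in that comparison, with a median of 0.10. They were the transcription factor genes IRF9, STAT2 and IRF1. IRF9 had 62.7, 61.2 and 54.9 TPM in LB AMD+HPbCD, against 26.4, 24.2 and 23.1 TPM in LB AMD, and rose by 1.25 ± 0.11 (SE, adjusted p = 5.4e-05). Its groups were clear of each other. STAT2 (21.4 ± 1.46 against 13.6 ± 1.56 TPM, mean ± SD, n = 3 each, here and for the genes that follow, limma adjusted p = 0.00451) rose by 0.62, and IRF1 (26.9 ± 2.39 against 18.6 ± 1.57 TPM, adjusted p = 0.00718), which acts on class I promoters directly, rose by 0.50. These 3 were called under each of the 23 alternatives, while the kinases JAK1 and JAK2 and the NF-kappaB genes RELA and NFKB1 did not pass.

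The immunoproteasome is the form of the proteasome with interferon-inducible subunits that favours class I ligands. PSMB8, one such subunit, had 44.1, 43.5 and 38.0 TPM in LB AMD+HPbCD, against 31.5, 31.4 and 25.7 TPM in LB AMD, and rose by 0.49 ± 0.089 (SE, adjusted p = 0.00868). It was the only one of 6 tested immunoproteasome genes to pass (4.07% of all tested genes did), with no overlap between the groups, and the median of the list was 0.16. PSMB9 (33.3 ± 6.97 against 27.0 ± 0.811 TPM, adjusted p = 0.327), whose model overlaps TAP1, and PSMB10 (49.2 ± 3.62 against 43.8 ± 1.31 TPM, adjusted p = 0.353) did not. Among 5 constitutive subunits and activators PSMB7 alone rose, by 0.23 (384 ± 2.002 against 327 ± 5.97 TPM, adjusted p = 0.0108, 0.0512 in limma without trend). Of 9 endoplasmic reticulum chaperones and peptide-trimming enzymes only the chaperone CALR rose, by 0.19 (663 ± 11.9 against 582 ± 15.6 TPM, adjusted p = 0.0214), a call lost without LB AMD replicate 1 or 2 or any LB AMD+HPbCD library (0.0539 to 0.0955).

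Of 8 tested factors of the class I promoter module, none rose and RFX5 fell, where 4.07% of all tested genes were called. RFX5, a subunit of the complex with which NLRC5 works, had 40.6, 41.1 and 39.7 TPM in LB AMD+HPbCD, against 50.3, 57.9 and 52.6 TPM in LB AMD. All LB AMD+HPbCD libraries were lower, and RFX5 fell by 0.40 on the log2 scale (SE 0.066, adjusted p = 0.0055), called under each of the 23 alternatives.

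**Figure D4:**
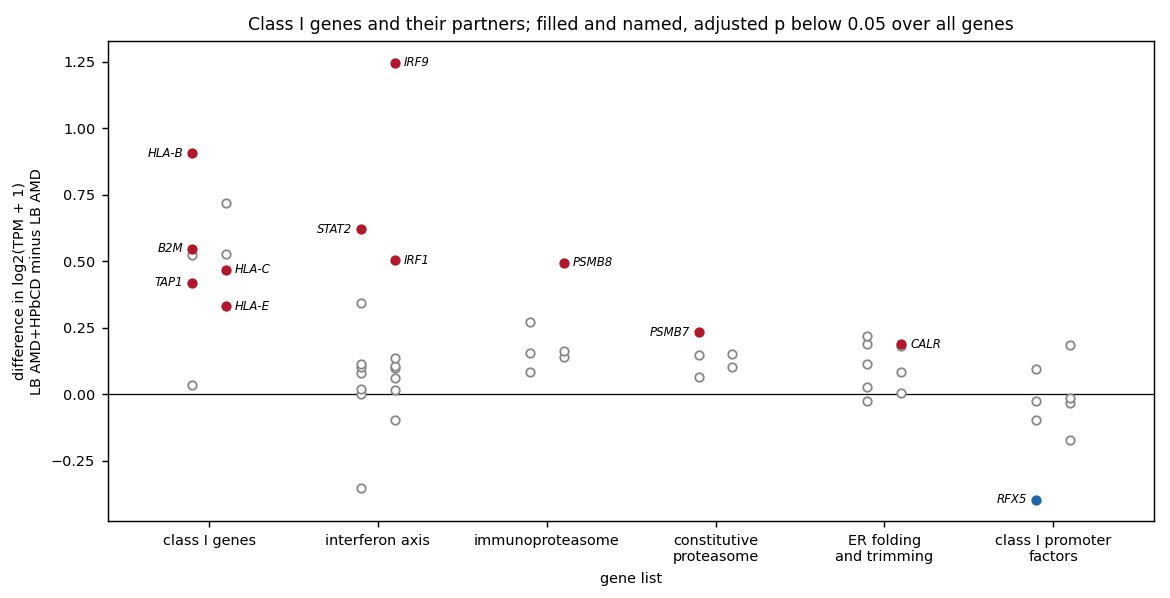
Differences in log2(TPM + 1), LB AMD+HPbCD minus LB AMD, of the 9 class I genes and of 5 lists of partner genes, each point a gene, filled and named where the adjusted p over all genes is under 0.05. IRF9 at 1.25 and HLA-B at 0.91 are the highest points and RFX5 at -0.40 is the lowest filled one.

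In LB AMD+HPbCD against LB DMSO, which shares the treated libraries, 4 of 16 interferon axis genes rose and 1 fell. Of all tested genes, 17.9% were called here, 10.1% as higher and 7.81% as lower. IRF9 (59.6 ± 4.17 against 23.6 ± 4.22 TPM, adjusted p = 6.89e-06) rose by 1.31, STAT2 (21.4 ± 1.46 against 11.5 ± 0.473 TPM, adjusted p = 0.000109) by 0.85 and IRF1 (26.9 ± 2.39 against 19.0 ± 1.03 TPM, adjusted p = 0.00258) by 0.48. The other one was the interferon-gamma receptor gene IFNGR2. PSMB8 and the proteasome assembly factor POMP rose among 6 immunoproteasome genes, and the chaperones CALR, CANX and HSPA5 among 9 genes of folding and trimming. HSPA5 lost its call without LB DMSO replicate 2 or LB AMD+HPbCD replicate 3 (adjusted p 0.0515 and 0.0524). NFYA, a subunit of the CCAAT-binding factor, fell by 0.25 (16.5 ± 0.910 against 19.8 ± 0.506 TPM, adjusted p = 0.0335), and PSME3 and TYK2 fell as well, each of the 3 a call lost without 5 or more single libraries.

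With amiodarone alone against LB DMSO, where 8.62% of all tested genes were called, of 16 interferon axis genes 1 rose, IFNGR2, by 0.32 (83.9 ± 5.27 against 66.8 ± 1.73 TPM, adjusted p = 0.0196), and its call was lost without LB DMSO replicate 1 or 2 or LB AMD replicate 2 or 3 (0.0516 to 0.0781). PSMB9 fell by 0.56 on the log2 scale (27.0 ± 0.811 against 40.5 ± 3.31 TPM, adjusted p = 0.0254), a call lost without LB DMSO replicate 1 or 2 or any LB AMD library (0.0636 to 0.0892). PSME3, a proteasome activator gene, fell by 0.23 on the log2 scale as 1 of 5 constitutive subunits and activators (228 ± 10.5 against 267 ± 9.81 TPM, adjusted p = 0.0174), a call lost without LB DMSO replicate 1 or 3 or LB AMD replicate 1 or 2 (0.0563 to 0.0758) and in limma without trend (0.054). RFX5 and NFYB rose among 8 promoter factors at adjusted p of 0.0415 and 0.0418, calls lost without 8 and 9 single libraries, and none of the 9 folding and trimming genes passed in limma (2 at an unadjusted p under 0.05).

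Between the lines, LB DMSO against A549 DMSO, 4 of 16 interferon axis genes rose and none fell. Of all tested genes, 32.4% were called in this comparison, 14.2% as higher and 18.2% as lower. The cytokine-signalling inhibitor SOCS3 rose by 1.01 (29.9 ± 2.62 against 14.3 ± 1.31 TPM, adjusted p = 1.21e-06) and IFNGR2 by 0.93 (66.8 ± 1.73 against 34.7 ± 3.94 TPM, adjusted p = 1.38e-06). IRF9 rose by 0.57 (23.6 ± 4.22 against 15.4 ± 0.972 TPM, adjusted p = 0.00172) and IFNGR1 by 0.37 (30.3 ± 1.10 against 23.2 ± 2.45 TPM, adjusted p = 0.00173). RFX5 and NFYA also rose among the 8 tested promoter factors, by 0.26 and 0.28. PSME1, a subunit of the interferon-inducible PA28 activator, fell by 0.42 (119.5 ± 6.53 against 159.8 ± 2.98 TPM, adjusted p = 0.000244), where POMP rose by 0.22.

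The span of chromosome 6 from HLA-F to TAPBP (29722775 to 33314387) holds 98 other tested genes. In LB AMD+HPbCD against LB AMD, 6 of these rose and none fell, which is 6.12% beside 4.07% of all tested genes, with a median of -0.0046, while 4 of the 7 class I genes in the span rose. Among the 98, those with the largest changes included PSMB8, PSMB8-AS1, a noncoding RNA that overlaps TAP1, at 0.79 (2.02 ± 0.390 against 0.740 ± 0.176 TPM, adjusted p = 0.0187), and PPP1R18 at 0.39 (25.9 ± 2.68 against 19.5 ± 1.74 TPM, adjusted p = 0.033). The call was lost for PSMB8-AS1 without LB AMD replicate 1 or 2 or LB AMD+HPbCD replicate 1 or 3 (0.0506 to 0.0881), and for PPP1R18 without 6 single libraries (0.0515 to 0.125). Reads within the stretch that PSMB8-AS1 and TAP1 share may not be told apart if strand was not used in the counting.

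In LB AMD+HPbCD against LB DMSO, 10 of the 98 rose and 13 fell, which is 23.5% beside 17.9% of all tested genes. In LB AMD against LB DMSO 4 rose and 9 fell (13.3%, beside 8.62%), and in LB DMSO against A549 DMSO 38 rose and 5 fell (43.9%, beside 32.4%), with a median of 0.24. The sialidase gene NEU1 rose in all 3, with 235 ± 4.26 TPM in LB AMD+HPbCD, 214 ± 3.06 TPM in LB AMD, 64.8 ± 2.23 TPM in LB DMSO and 22.1 ± 1.28 TPM in A549 DMSO, and MICA, a stress ligand of natural killer cells, rose by 0.86 in LB AMD against LB DMSO (77.0 ± 1.68 against 42.1 ± 0.759 TPM, adjusted p = 5.15e-05).

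As a description over the 12 libraries, of 4 groups that share treatments and so are not independent, the Pearson correlation of log2(TPM + 1) was 0.974 between HLA-B and B2M and 0.945 between HLA-B and HLA-C, but 0.626 between TAP1 and TAP2 and between -0.327 and 0.372 for NLRC5 with the other 8. Among 10408 genes whose mean reached 5 TPM, those most like HLA-B were DUSP5 (0.985), MX1 (0.982), MAP2K1 (0.974), ISG15 (0.967) and PSMD8 (0.966). Those most like B2M were DUSP5 (0.983), ISG15 (0.981), MX1 (0.979), PIM3 (0.978) and IFIT1 (0.976). MX1, ISG15 and IFIT1 are known as interferon-stimulated genes. ISG15 had mean levels of 292 TPM in LB AMD+HPbCD, 49.9 in LB AMD, 27.7 in LB DMSO and 11.2 in A549 DMSO, and MX1 had 28.7, 3.15, 2.03 and 0.427 TPM in the same order. MX1 thus reached the mean of 5 TPM only through LB AMD+HPbCD, the group in which HLA-B and B2M were highest too. TAP1 had correlations of 0.862 with HLA-B, 0.899 with HLA-C, 0.926 with HLA-E and 0.868 with B2M. The other genes most like TAP1 were PLAUR (0.967), RELB (0.960), CTSB (0.952), PPP1R18 (0.9495) and PSMB7 (0.946).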

How the data were processed

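The deposited table gives TPM per gene symbol and library, made by the authors from 100-bp reads of stranded mRNA libraries with STAR 2.7.3a, RSEM 1.3.1 and GRCh38, per the submitters' processing notes. The sources used here name no annotation release. Of 57189 rows, 37 hold no value. No count model was used. The log2 scale has a pseudocount of 1. Fits used limma (version 3.58.1, R version 4.3.3) on 13968 genes whose mean reached 1 TPM, with all 4 groups in 1 model (8 residual degrees of freedom), a mean-variance trend, two-sided p-values and Benjamini-Hochberg adjustment over all genes within each comparison, at 0.05. The fit was tested on simulated data. Members and lists were chosen with earlier results of these data known. In each list up to 4 called genes with the largest change could be named, for HLA-B, TAP1 and B2M the 5 genes most like each, and other named genes were chosen after their values were seen. Some genes that the rule or the lists would take are not reported here. Alternatives were pseudocounts of 0.1 and 5, no filter, a mean of 5 TPM, median-of-ratios and quantile scaling, limma without trend, with robust variance or array weights, only the 2 groups compared, a replicate block, and leaving out each library. The partner genes under these alternatives were added after seeing the data.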

Additional observations from a re-analysis of the deposited data

How the results depend on the processing

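Over 36 differences of the 9 genes and 23 alternatives, 820 values were had (HLA-F and NLRC5 are below a mean of 5 TPM), of which 729 kept direction and side of the threshold, 83 lost a call, 2 gained one and 6 changed sign. With no filter the count of called class I genes was 5 of 9 in LB AMD+HPbCD against LB DMSO (8 as reported), 1 in LB AMD against LB DMSO (3) and 3 in LB DMSO against A549 DMSO (7), and 1 in LB AMD against LB DMSO in limma without trend. Leaving out 1 library gave 3 to 5 called in LB AMD+HPbCD against LB AMD, 5 to 8 in LB AMD+HPbCD against LB DMSO, 1 to 3 in LB AMD against LB DMSO and 3 to 7 in LB DMSO against A549 DMSO, and, over all genes in that order, 282 to 827 (568 as reported), 1702 to 2841 (2495), 630 to 1493 (1204) and 3661 to 4467 (4525). Signs changed for values near 0 that were never called. In LB AMD against LB DMSO these were HLA-F without LB DMSO replicate 1 (-0.065) or LB AMD replicate 2 (-0.044) and HLA-C without LB AMD replicate 1 (-0.049). TAPBP was at -0.0039 in LB AMD+HPbCD against LB AMD without LB AMD replicate 3, and TAP2 at 0.00027 and 0.038 against LB DMSO without LB DMSO replicate 3 or LB AMD+HPbCD replicate 3. Over the libraries left out, these 4 differences ran from -0.065 to 0.39 (HLA-F), -0.049 to 0.11 (HLA-C), -0.0039 to 0.056 (TAPBP) and -0.24 to 0.038 (TAP2). Leaving out 1 library moved the log2 difference of the B2M ratio over 0.016 to 0.11, 0.13 to 0.22, 0.074 to 0.15 and -0.13 to -0.059 in the same order of comparisons, and that of the TAP1 to TAP2 ratio over -0.19 to -0.060, 0.29 to 0.54, 0.40 to 0.65 and -0.17 to 0.069. The last ratio turned positive without A549 DMSO replicate 3 (0.050) or LB DMSO replicate 3 (0.069). No scaling changed the sign of a called class I gene. Same-numbered libraries of different groups deviated together only weakly (18 correlations, -0.065 to 0.212, median 0.021, 2 over 0.1). Differently numbered ones gave 36 correlations of -0.128 to 0.085 (median -0.010, 0 over 0.1). Numbers were not taken as pairs in the main fits. With a replicate block the called class I genes were 5, 7, 2 and 5 of 9 in that order of comparisons, and the called genes of all 606, 2558, 1198 and 4581. The cause of these changes was not tested. TPM gives no depth, so counting error of the low genes HLA-F and NLRC5 could not be had.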

Other observations

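Class I-like molecules, which share the fold but mostly present no peptide, were read in the same fits. None of the 9 tested class I-like genes passed in LB AMD+HPbCD against LB AMD, where 4.07% of all tested genes did. Of these 9, 4 had an unadjusted limma p under 0.05 and 5 differences were positive. In LB AMD+HPbCD against LB DMSO, 3 of the 9 rose and none fell, where 17.9% of all tested genes were called. In that comparison the stress ligands MICA and MICB rose by 1.10 and 0.57 (limma adjusted p = 2.81e-06 and 0.00576). ULBP2 rose by 0.65 (limma adjusted p = 0.0232), a call lost without any of 4 single libraries and with no filter. In LB AMD against LB DMSO 2 of the 9 rose and none fell, where 8.62% of all tested genes were called. These were MICA and MICB, MICB by 0.48 (19.1 ± 1.01 against 13.5 ± 0.915 TPM, SD, n = 3 each, limma adjusted p = 0.0279), a call lost without LB DMSO replicate 2 or 3 or any LB AMD library (0.0566 to 0.0918). In LB DMSO against A549 DMSO 4 of the 9 rose and 1 fell, where 32.4% of all tested genes were called. MICA rose by 0.70, FCGRT, the neonatal Fc receptor, by 0.71, MR1, which presents vitamin metabolites, by 0.56 and MICB by 0.55, while PROCR fell by 0.36 (107 ± 7.58 against 138 ± 12.5 TPM, limma adjusted p = 0.00247).

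Of 11 genes of the class II pathway, 8 were near absent and too low to be tested. HLA-DRA reached at most 0.11 TPM, the invariant chain CD74 at most 0.48 TPM and the class II coactivator CIITA at most 0.15 TPM in any library. CTSS, the protease that cuts the invariant chain, was tested and averaged 39.1 ± 2.82 TPM in LB AMD+HPbCD, 25.8 ± 2.51 TPM in LB AMD and 18.3 ± 1.49 TPM in LB DMSO (SD, n = 3 each). It rose by 0.58 in LB AMD+HPbCD against LB AMD (limma adjusted p = 0.0199, 0.0564 to 0.09 without LB AMD replicate 1 or 2 or LB AMD+HPbCD replicate 1 or 3). HLA-DMB fell by 0.97 in LB DMSO against A549 DMSO (27.6 ± 2.99 against 58.1 ± 23.4 TPM, limma adjusted p = 0.00527).

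Of 9 interferon genes looked up after the values above were seen, IFNG, IFNA2 and IFNK were listed at 0 in every library. IFNB1 reached at most 0.1 TPM, IFNA1 at most 0.23 TPM and IFNL1, IFNL2 and IFNL3 at most 0.42 TPM, while IFNE lay between 0.29 and 1.37 TPM.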
